A study of Mus musculus with 7 samples.

Results

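The genes described here belong to families that make, break down and read cyclic AMP (cAMP) in the glucagon-secreting alpha cells of the mouse pancreas. Members were picked by symbol from every gene of the count table. Adenylyl cyclases have Adcy and a number, and phosphodiesterases Pde, a number and, where present, a letter from a to h. The other members were subunits of protein kinase A, the Epac proteins (Rapgef3, Rapgef4) and the CREB, CREM and CRTC group of transcription factors and coactivators. By name the phosphodiesterases include Pde12 and the PDE6 accessory genes Pde6d, Pde6g and Pde6h, which are not cyclic nucleotide hydrolases. The rule found 48 of the 55536 genes in the table: 10 cyclases, 25 phosphodiesterases, 6 kinase subunits, 2 Epac genes and 5 genes of the CREB, CREM and CRTC group. It used names only, no measured value.

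Adenylyl cyclases turn ATP into cAMP when a stimulatory G protein is released by a receptor, and inhibitory G proteins hold several of them back. Phosphodiesterases hydrolyse cAMP, cyclic GMP or both, so the set that a cell makes shapes how far and how long a cAMP signal lasts. The signal is read mainly by protein kinase A, whose regulatory subunits release the catalytic subunits when they bind cAMP, and by the Epac proteins, which activate the small G protein Rap1. Protein kinase A phosphorylates CREB, which binds the cAMP response elements of target genes, and CRTC coactivators join it there. In alpha cells cAMP is known to promote glucagon secretion.

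The study compared 2 genotypes, both on a C57BL/6J background. Control libraries came from Nkx2.2+/+;Gcg-iCre;Rosa26:tdTomato mice, and knockout (KO) libraries from Nkx2.2fl/fl;Gcg-iCre;Rosa26:tdTomato mice, so that both groups carried the same Cre and the same red reporter. Nkx2-2 encodes a homeodomain transcription factor of islet endocrine cells. Cre was driven by the glucagon gene, and the cells were sorted from islets on tdTomato fluorescence, so the sort shows that Cre acted on the reporter and not that it acted on Nkx2-2. There were 4 control and 3 KO libraries. Age and sex are not given in the sources used here, nor whether each library came from separate animals, so the p-values measure the spread between these libraries, which may be technical. The column of one KO library is numbered 4, a number absent from the KO titles; it is called the unnumbered KO library. Values per library are listed as controls 1 to 4, then KO 1, KO 2 and the unnumbered library.

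Total counts ran from 45483504 to 72456557 per library. Control 4 and the unnumbered KO library were the deepest, and control 4 stood apart: 31024 genes had a count in it, against 23150 to 25873 in the other 6 libraries, and its counts differed from those of the other controls by a chi-square per degree of freedom of 220 to 262, against 33.8 to 41.9 among controls 1 to 3. The unnumbered KO library also differed from KO 1 and KO 2, at 107 and 153, against 38 between KO 1 and KO 2. Results are therefore also given without control 4. Nkx2-2 itself had 8596, 11199, 12297 and 9782 normalized counts in the controls against 7758, 7534 and 7694 in the KO libraries, the counts having been divided by each library's size factor. It fell by 0.45 on the log2 scale (DESeq2 adjusted p 0.0244, edgeR adjusted p 0.152), and 2 of 7 fits without one library called it. This count covers the whole gene, so it does not check the deleted piece. Summed alpha cell markers (8 genes, 6 called) were at 6417122 to 8411910 normalized counts in controls and 2925132 to 4240504 in KO libraries, and Gcg was the most abundant of them in every library. The pancreatic polypeptide cell markers Ppy and Pyy summed to 308242 to 579053 and 888245 to 1135028, without overlap, and both were called. The leukocyte sum also did not overlap (867 to 1422 and 638 to 749), which came from C1qa (means of 976 and 553, the 1 of 5 called), while Ptprc, Cd68, Lyz2 and C1qb were higher in mean in KO libraries and not called. Sums overlapped for beta cell markers (336739 to 690569 and 529402 to 973010, 1 of 8 called), delta cell markers (196263 to 398978 and 355301 to 632402, 1 of 4 called) and acinar markers (155 to 11714 and 998 to 5796, 0 of 7 called), and for endothelial, mesenchymal and Schwann cell markers (0 called). Even so, every beta and delta cell marker was higher in mean in KO libraries. Iapp (means of 55204 and 105491, called), Slc2a2 (3855 and 6016) and Rbp4 (14963 and 43911, called) did not overlap. The duct sum, mostly Krt7, overlapped too, but within it Spp1 (669 and 1054, called), Sox9 (267 and 861) and Cftr (18.2 and 64.8) did not, the values being means in controls and KO libraries. No marker was at 0 in all libraries, and Amy2b, Ptprc, Lyz2 and C1qb were at 0 in at least one. The part of these shifts in the results below was not tested. In bulk RNA of sorted cells, fewer cells of a type and less RNA per cell cannot be told apart.

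The shifts that passed both tests were a fall of Adcy1 and rises of Adcy5 and Pde6c in KO libraries. Of the 43 members that DESeq2 tested, 6 were called at a Benjamini-Hochberg adjusted p under 0.05: Adcy5, Pde3a, Pde6c and Pde7b rose, and Adcy1 and Pde1c fell. Over all 19719 genes tested, 3.90% were called, 1.96% higher and 1.94% lower in KO. With edgeR's quasi-likelihood test 3 of 41 members tested were called, Adcy1, Adcy5 and Pde6c, against 1.05% of all genes (0.404% higher and 0.647% lower). Without control 4 DESeq2 again called 6 members, of 41 tested, Pde9a taking the place of Pde3a, against 891 of all 18390 genes tested. Without both of the deepest libraries it called 4 of 40, Adcy1, Adcy5, Pde1c and Pde6c, against 882 of 15448 genes. The libraries of the groups did not overlap for 16 of the 43 tested members, against 11.4% of all genes tested. The median log2 fold change of the tested members was -0.02 (all genes 0.01) and their range -1.38 to 1.33. No subunit of protein kinase A, no Epac gene and no gene of the CREB, CREM and CRTC group was called by DESeq2 or edgeR. At an unadjusted DESeq2 p under 0.05 there were 1 of 6, 1 of 2 and 0 of 5, against 11.3% of all genes tested. The other 5 members (Adcy4, Pde2a, Pde6b, Pde6g and Pde6h) got no adjusted p. None of these 5 had more than 22 counts in any library.

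**Figure D1:**
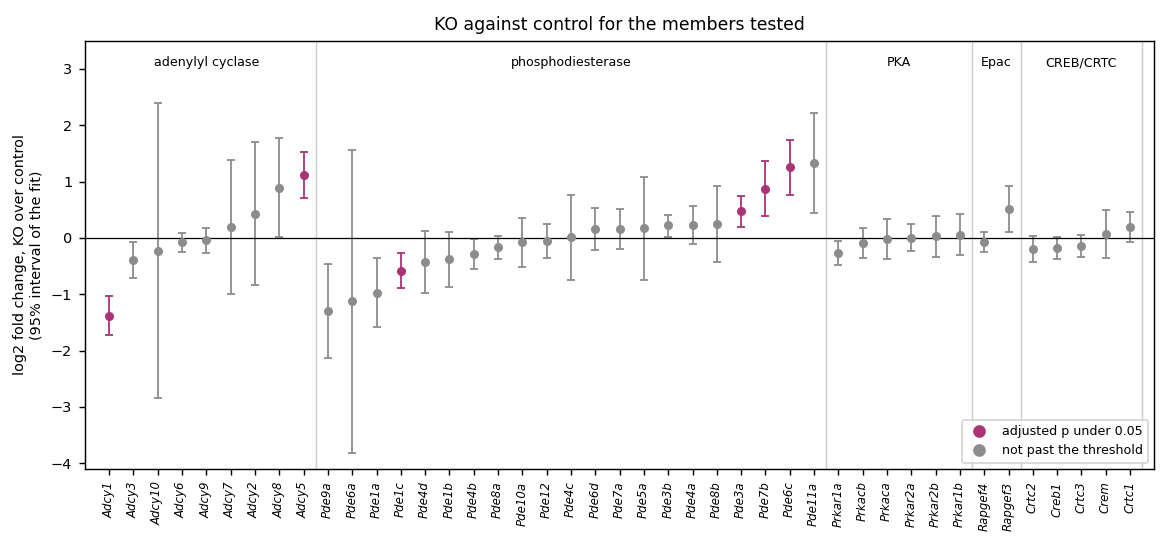
Log2 fold change of KO against control for the 43 tested members (horizontal axis), grouped by family, with 95% intervals from the DESeq2 fit. The 6 called members range from Adcy1 at -1.38 to Pde6c at 1.25, and Pde11a at 1.33 has a wide interval and was not called.

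Among the cyclases, the 2 most abundant per length, Adcy6 and Adcy9, were not called, and the next 2, Adcy1 and Adcy5, were. Levels between genes are given as normalized counts per kilobase of exon and per 1000000 counts. In controls Adcy6, a cyclase that calcium inhibits, stood at 31.2 ± 1.26 (SD, n = 4) and made up 53.7% ± 1.1 of the summed level of all cyclases. Adcy9, which forskolin stimulates little, followed at 15.9 ± 1.12, then Adcy1 at 5.44 ± 1.05, Adcy5 at 2.97 ± 0.496 and Adcy3 at 1.86 ± 0.161. The SD ranges of these neighbours did not meet. The remaining 5 cyclases were at 0.341 or less.

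Adcy1, a cyclase stimulated by calcium and calmodulin, had 4601, 3661, 2851 and 3796 normalized counts in the controls. The KO libraries had 1527, 1584 and 1189. The highest KO value was well under the lowest control, so the groups were apart. Adcy1 fell by 1.38 on the log2 scale (SE 0.18; DESeq2 adjusted p 5.83e-12, edgeR adjusted p 0.0135), to 38.5% of the control mean. It was called in all 7 fits that left out one library, between -1.49 and -1.26, and at -1.37 without control 4 (DESeq2 adjusted p 9.38e-13).

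Adcy5, the other cyclase that calcium inhibits, had 1245, 1398, 1079 and 950 normalized counts in the controls against 2472, 3285 and 1846 in the KO libraries. The groups did not overlap, but the KO libraries spread widely, with KO 2 highest and the unnumbered library lowest. Adcy5 rose by 1.12 on the log2 scale (SE 0.21; DESeq2 adjusted p 1.36e-05, edgeR adjusted p 0.0411), to 217% of the control mean. It was called in all 7 fits without one library, between 0.89 (without KO 2) and 1.30. Among the delta cell markers, Rbp4 was highest in KO 2, as Adcy5 was (47167, 54008 and 30558 normalized counts in the KO libraries). Sst (582613, 299707 and 408438), Hhex (1959, 1207 and 1765) and Ghsr (664, 379 and 560) were lowest there. Of the pancreatic polypeptide cell markers, Pyy had the order of Adcy5 (273060, 351318 and 262546) and Ppy did not (615185, 783711 and 779688). The part of delta or pancreatic polypeptide cell RNA in the Adcy5 result was not tested. The genes on either side of Adcy5, Hacd2 and Sec22a, had log2 fold changes of 0.04 and 0.07.

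Adcy1 and Adcy5 were picked for their opposite calls, so their ratio within a library restates these and is no further test. Bulk RNA does not show whether both shifts were in the same cells. The Adcy5 level divided by the Adcy1 level was 0.472, 0.665, 0.659 and 0.436 in the controls against 2.82, 3.61 and 2.71 in the KO libraries, so Adcy1 was the more abundant in every control and Adcy5 in every KO library. The summed level of all cyclases was 58.1 ± 2.98 in controls and 56 ± 2.29 in KO libraries (SD, n = 4 and 3), and the groups overlapped. As a share of it Adcy1 went from 9.35% ± 1.6 to 3.74% ± 0.534 and Adcy5 from 5.11% ± 0.736 to 11.5% ± 2.92. The calcium-stimulated cyclases together (Adcy1, Adcy3, Adcy8) were at 7.56 ± 1.26 in controls and 3.98 ± 0.432 in KO libraries, without overlap, and the calcium-inhibited pair (Adcy5, Adcy6) at 34.2 ± 1.6 and 36 ± 2.9, with overlap. Adcy1 alone was at 5.44 and 2.09 of the calcium-stimulated sums, while Adcy3 was lower and Adcy8 higher in mean in KO libraries. These sums describe the libraries and carry no test.

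**Figure D2:**
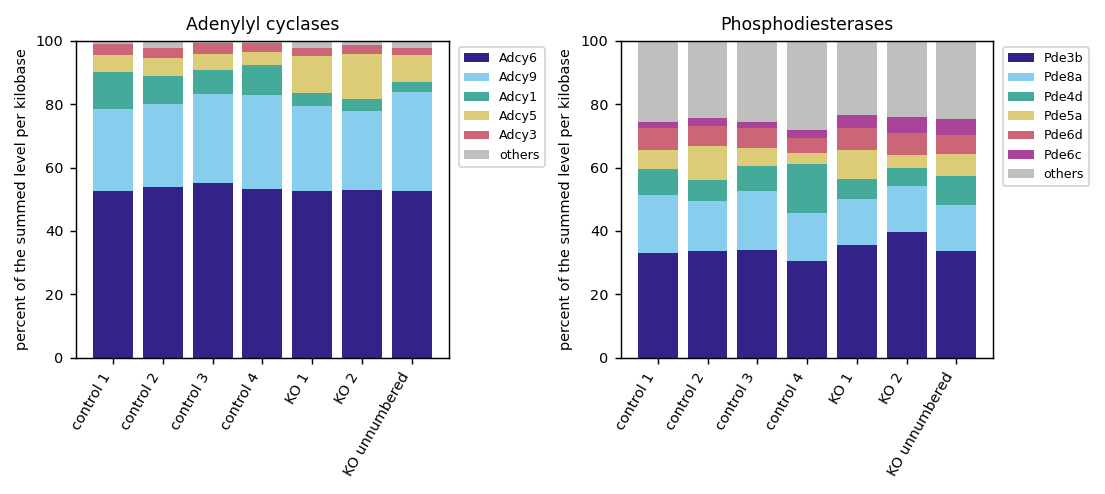
Share of the summed cyclase level and of the summed phosphodiesterase level taken by single genes or groups (percent, vertical axis) in each of the 7 libraries. Adcy1 holds 7.72% to 11.5% of the cyclase level in controls and 3.13% to 4.13% in KO libraries, while Adcy6 holds 52.5% to 55.2% in all 7.

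None of the other tested cyclases was called. Adcy6 had 11052 to 12167 normalized counts in controls and 10518 to 11458 in KO libraries, a log2 difference of -0.08 with a 95% interval of -0.25 to 0.09. Adcy9 differed by -0.04 (interval -0.27 to 0.18). For Adcy3, the cyclase downstream of odorant receptors in olfactory neurons, the controls (575 to 693) and the KO libraries (424 to 521) did not overlap, at -0.40 (DESeq2 adjusted p 0.202). Of its exon length 22.1% lies under exons of a gene on the opposite strand, and counting by strand is not given in the sources used here, so this value is uncertain. Adcy8, another calcium-stimulated cyclase, had 49.7 to 186 in controls and 186 to 235 in KO libraries (0.89, DESeq2 adjusted p 0.422). The low-level Adcy2, Adcy7 and the soluble cyclase Adcy10 were at 0.43, 0.20 and -0.23, with DESeq2 adjusted p of 0.991 to 1 and wide intervals, Adcy10 having no more than 38 counts in any library.

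Promoter sequences of the called cyclases are shown because the genes moved in opposite directions, each as 300 bases from 250 before to 50 after the start site in RefSeq on GRCm38.p6, with the start base in capitals. Adcy1 is chr11:7063183-7063482 and Adcy5 chr16:35154614-35154913, both on the plus strand.
Adcy1: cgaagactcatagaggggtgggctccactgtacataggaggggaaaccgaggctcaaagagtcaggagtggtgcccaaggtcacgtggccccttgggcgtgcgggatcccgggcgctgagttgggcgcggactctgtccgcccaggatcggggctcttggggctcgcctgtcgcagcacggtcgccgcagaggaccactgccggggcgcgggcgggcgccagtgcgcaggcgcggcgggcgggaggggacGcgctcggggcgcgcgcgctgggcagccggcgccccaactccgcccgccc
Adcy5: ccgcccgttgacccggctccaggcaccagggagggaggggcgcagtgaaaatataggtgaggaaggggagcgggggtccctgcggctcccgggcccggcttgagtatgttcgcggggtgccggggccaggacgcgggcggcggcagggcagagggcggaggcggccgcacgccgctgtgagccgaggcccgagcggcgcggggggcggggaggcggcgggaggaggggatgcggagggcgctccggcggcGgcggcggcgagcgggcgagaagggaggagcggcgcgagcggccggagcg
Both windows are rich in G and C, 74.0% and 79.0%. Neither holds the cAMP response element (TGACGTCA), its 5-base core (TGACG) or the core letters bound by NK2 homeodomain factors (TNAAGTG), searched on both strands. Promoters were found for 37 of the 48 members, in 74 windows. The full element was in 2.70% of these windows and in 1.79% of all 32851 windows, and in members only for Prkar1a. The member share comes from 2 overlapping Prkar1a windows that hold the same site. The 5-base core, which the full element contains, was in 23.0% and 20.8%, and the NK2 core in 13.5% and 11.5%. A match here is a match of letters and not a bound site.

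**Figure D3:**
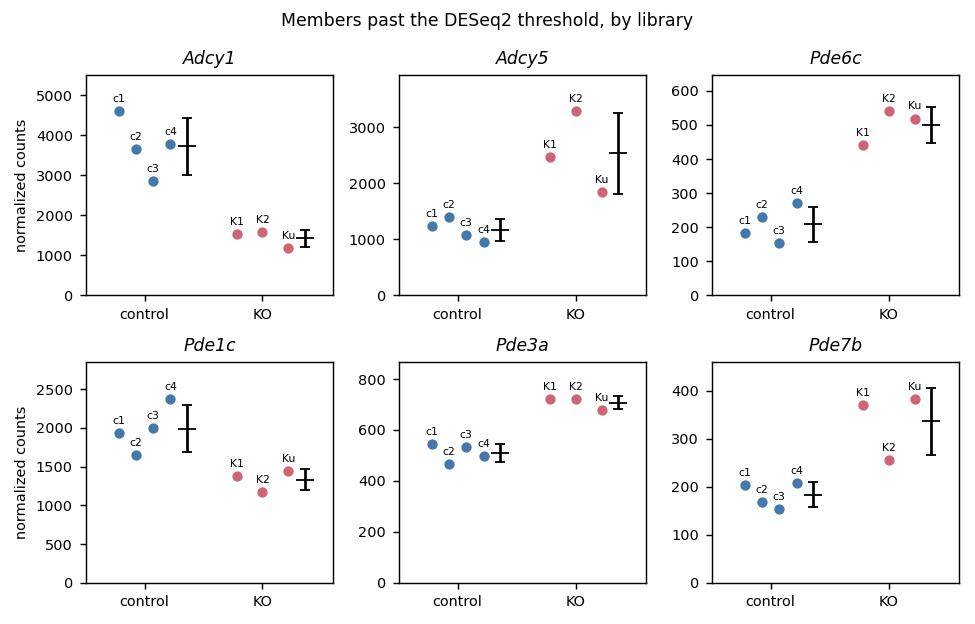
Normalized counts (vertical axes) of the 6 called members in each library, controls beside KO, with the group mean and SD. KO points lie below all controls for Adcy1 and Pde1c and above all controls for Adcy5, Pde3a, Pde6c and Pde7b.

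Phosphodiesterases were led by Pde3b, which hydrolyses cAMP and is inhibited by cyclic GMP. It stood at 20.4 ± 0.955 in controls, 32.7% ± 1.57 of the summed phosphodiesterase level, followed by the cAMP-specific Pde8a at 10.6 ± 0.83 and Pde4d at 6.08 ± 2.78, the cyclic GMP-specific Pde5a at 4.01 ± 1.89, the prenyl-binding protein Pde6d at 3.87 ± 0.61, and the dual-specificity Pde10a at 2.24 ± 0.615. The SD ranges of Pde4d, Pde5a and Pde6d met, as did those of Pde5a and Pde10a, and Pde12, next at 2.19 ± 0.206, lay within that of Pde10a. Summed over the family the level was 62.6 ± 4.11 in controls and 65.3 ± 1.03 in KO libraries, with overlap. Pde12 and the PDE6 accessory genes together held 9.86% ± 1.46 of this sum in controls and 9.88% ± 0.657 in KO libraries. Of the 21 phosphodiesterases tested, 3 rose (Pde3a, Pde6c, Pde7b) and 1 fell (Pde1c), against 1.96% and 1.94% of all genes tested.

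**Figure D4:**
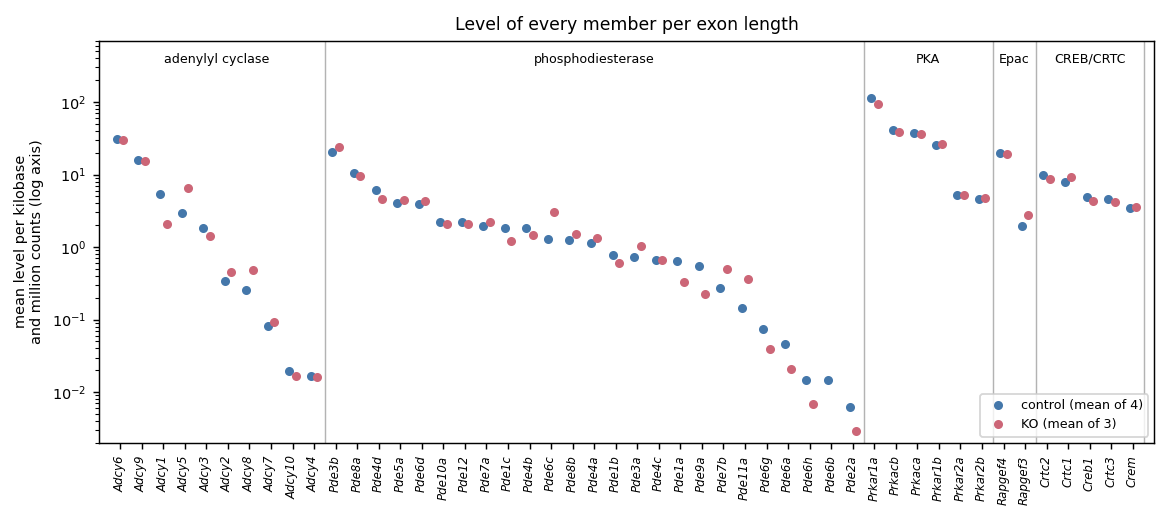
Level of each member in controls and KO libraries (normalized counts per kilobase of exon and per 1000000 counts, logarithmic axis), by family. Adcy6, Pde3b, Prkar1a and Rapgef4 lead their families in both groups, and Pde6b, at 0 in the KO libraries, has no KO point.

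Pde6c encodes a catalytic subunit of the cyclic GMP phosphodiesterase of cone photoreceptors. It had 183, 229, 154 and 270 normalized counts in the controls against 440, 540 and 519 in the KO libraries. The KO libraries lay close together and above every control. Pde6c rose by 1.25 on the log2 scale (SE 0.25; DESeq2 adjusted p 3.63e-05, edgeR adjusted p 0.0399), to 239% of the control mean, and by 1.41 without control 4. All 7 fits without one library called it. Its share of the summed phosphodiesterase level went from 2.04% ± 0.401 to 4.72% ± 0.558. On one side of the gene, on chromosome 19, lies Rbp4, 7.5 kb away and on the opposite strand. Rbp4 also rose, with means of 14963 and 43911 normalized counts (1.55, DESeq2 adjusted p 0.0142, edgeR adjusted p 0.0761). The neighbour on the other side, Fra10ac1, 4.52 kb away, was at -0.30 (DESeq2 adjusted p 0.264). Whether the shifts of Pde6c and Rbp4 are linked was not tested.

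The PDE1 enzymes, which calcium and calmodulin stimulate and which act on both cyclic nucleotides, were all lower in mean in KO libraries. Pde1c had 1939, 1644, 2004 and 2378 normalized counts in the controls against 1374, 1178 and 1447 in the KO libraries. No KO library reached the lowest control. Pde1c fell by 0.58 on the log2 scale (SE 0.16; DESeq2 adjusted p 0.00911), but edgeR did not call it (adjusted p 0.104). It was called in 4 of 7 fits without one library, failing without control 3 (adjusted p 0.0523), KO 1 (0.0709) or KO 2 (0.107). Pde1a had 167 to 288 normalized counts in controls and 84.1 to 119 in KO libraries, also without overlap, at -0.97 (DESeq2 adjusted p 0.0504). That value sits at the threshold. It was 0.0454 when DESeq2 was run on genes with at least 1 count with its filter aimed at 0.05 in place of 0.1. But edgeR did not call Pde1a (adjusted p 0.219), nor did any of the 7 DESeq2 fits without one library (adjusted p 0.0689 to 0.39). Without control 4, its highest library, Pde1a was at -0.77 (DESeq2 adjusted p 0.144). Pde1b, at -0.38 (DESeq2 adjusted p 0.712), overlapped between groups. Summed, PDE1 was at 3.23 ± 0.481 in controls and 2.14 ± 0.0454 in KO libraries, without overlap, a sum with no test.

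In the PDE3 pair, Pde3a had 545, 466, 533 and 496 normalized counts in the controls against 723, 721 and 679 in the KO libraries. Both groups were tight and did not overlap. Pde3a rose by 0.47 on the log2 scale (SE 0.14; DESeq2 adjusted p 0.0304), yet edgeR gave 0.144 and none of the 7 fits without one library called it (DESeq2 adjusted p 0.0887 to 0.334). The far more abundant Pde3b had 10561, 10550, 9574 and 10008 in the controls against 11789, 12917 and 10809 in the KO libraries, again without overlap. Its difference was 0.22 (SE 0.10; 95% interval 0.02 to 0.41; DESeq2 adjusted p 0.314), and it was called only when library totals set the scale (0.31, adjusted p 0.0254).

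Pde7b, a cAMP-specific enzyme of high affinity, had 203, 169, 154 and 209 normalized counts in the controls against 370, 256 and 384 in the KO libraries. KO 2 was nearest to the controls. Pde7b rose by 0.87 on the log2 scale (SE 0.25; DESeq2 adjusted p 0.018, edgeR adjusted p 0.146). It was called in 2 of 7 fits without one library, without control 4 (0.00781) and without KO 2 (0.00997), with a highest adjusted p of 0.267. Its promoter window, chr10:20548279-20548578 on the minus strand, is shown for the NK2 core, in capitals, at base -162 from the start. Pde7b was the only one of the 4 called members with a promoter entry to hold that core. The gene spans chr10:20398004-20725078, so this window lies inside it and not at its upstream end. Which start site these counts come from was not tested.
Pde7b: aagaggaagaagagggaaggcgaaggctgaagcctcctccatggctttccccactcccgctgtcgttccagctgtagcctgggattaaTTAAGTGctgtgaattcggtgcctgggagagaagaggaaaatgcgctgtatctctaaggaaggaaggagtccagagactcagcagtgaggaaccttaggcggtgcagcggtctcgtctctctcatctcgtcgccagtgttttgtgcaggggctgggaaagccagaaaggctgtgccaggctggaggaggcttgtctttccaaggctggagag

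Other phosphodiesterases gave larger differences with wider spread. Pde9a, specific for cyclic GMP, had 73.2 to 159 normalized counts in controls and 31.1 to 55.8 in KO libraries, at -1.30 (DESeq2 adjusted p 0.0577, and 0.0472 without control 4). Pde11a, which acts on both nucleotides, had 28.8 to 63.7 in controls and 75.3 to 123 in KO libraries, at 1.33 (DESeq2 adjusted p 0.076, and 0.0284 without control 2). For both genes the groups did not overlap, and edgeR called neither (0.235 and 0.229). Among the 7 fits without one library each gene was called in only 1, with highest DESeq2 adjusted p of 0.335 and 0.43. Pde4d had 3527, 2827, 2922 and 6686 in the controls against 2737, 2340 and 3872 in the KO libraries. Control 4 stood far above the rest, and the difference was -0.42 with that library and -0.05 without it. Pde8a was at -0.17, Pde5a at 0.17, Pde6d at 0.16 and Pde10a at -0.08, each with a 95% interval that spans 0. Pde4b, cAMP-specific like Pde4d, had 942 to 1129 in controls and 778 to 933 in KO libraries, without overlap, at -0.29 (DESeq2 adjusted p 0.375). The remaining 6 tested phosphodiesterases were not called: Pde4a, Pde4c, Pde7a and Pde8b, all cAMP-specific, lay between 0.01 and 0.25, the mitochondrial Pde12 was at -0.06, and the rod subunit Pde6a at -1.12 with no more than 32 counts in any library.

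Protein kinase A was the most abundant group per length. Prkar1a, the type I alpha regulatory subunit, was at 115 ± 11 in controls, followed by the catalytic subunits Prkacb at 40.9 ± 4.35 and Prkaca at 37 ± 5.89, and by the regulatory subunits Prkar1b at 25.4 ± 4, Prkar2a at 5.22 ± 0.423 and Prkar2b at 4.61 ± 0.647. The SD ranges of Prkacb and Prkaca met, as did those of Prkar2a and Prkar2b. Prkar1a had 27938, 24457, 30395 and 25849 normalized counts in the controls against 23065, 23430 and 20939 in the KO libraries. The groups did not overlap, but the gap between them was small beside the spread of the controls, and the difference of -0.27 (95% interval -0.48 to -0.06) was not called (DESeq2 adjusted p 0.174).

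For the other 5 subunits the groups overlapped. Differences were -0.09 for Prkacb, -0.02 for Prkaca, 0.06 for Prkar1b, 0.00 for Prkar2a and 0.03 for Prkar2b, and the 95% intervals lay within -0.37 and 0.42. Prkaca, Prkacb and Prkar1b were lowest within each group in control 4 and in the unnumbered KO library, the deepest of the 7: Prkaca had 4041 and 3773 normalized counts there and 4963 to 5991 in the other 5. Prkar1a is the one member whose promoter windows hold the full cAMP response element. Its window at chr11:109650699-109650998, plus strand, has the element at base -49 and a further 5-base core at -187, both in capitals.
Prkar1a: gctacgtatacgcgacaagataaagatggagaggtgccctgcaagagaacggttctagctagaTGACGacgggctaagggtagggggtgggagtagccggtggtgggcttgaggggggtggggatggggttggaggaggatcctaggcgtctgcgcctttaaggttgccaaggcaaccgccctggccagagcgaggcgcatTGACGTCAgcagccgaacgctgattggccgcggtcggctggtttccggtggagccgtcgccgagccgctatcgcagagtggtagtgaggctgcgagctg

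Of the Epac proteins, Rapgef4 (Epac2), known as the endocrine form, was at 20 ± 0.782 in controls and Rapgef3 (Epac1) at 1.94 ± 0.407. Rapgef4 had 7039, 7565, 7052 and 7512 normalized counts in the controls against 6658, 7459 and 6711 in the KO libraries, with overlap. Its difference was -0.07 (95% interval -0.25 to 0.11; DESeq2 adjusted p 0.981). Rapgef3 had 505 to 846 in controls and 778 to 1099 in KO libraries, at 0.52 (interval 0.11 to 0.93; DESeq2 adjusted p 0.198).

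Among the transcriptional readers, Crtc2 was at 9.91 ± 0.234 in controls, Crtc1 at 8.01 ± 1.15, Creb1 at 4.87 ± 0.298, Crtc3 at 4.61 ± 0.172 and Crem at 3.46 ± 0.959. Their differences were small: -0.18 for Creb1, 0.07 for Crem, 0.20 for Crtc1, -0.19 for Crtc2 and -0.15 for Crtc3, with DESeq2 adjusted p from 0.575 to 1. For Creb1 the controls (3507 to 3989) and KO libraries (3066 to 3381) did not overlap, and the same held for Crtc3 (2361 to 2584 and 2130 to 2342). Relative to its mean Crem had the widest spread, from 866 to 1561 in controls.

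**Figure D5:**
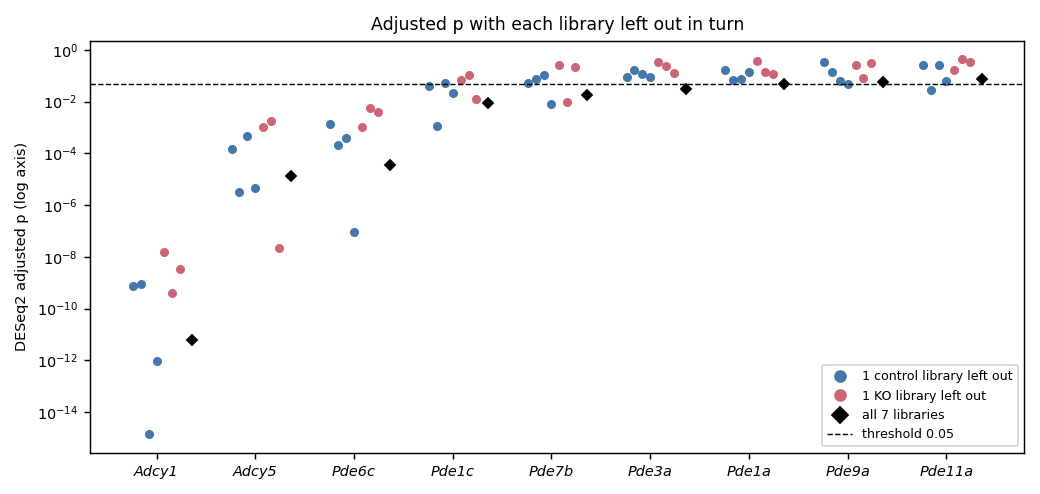
DESeq2 adjusted p (logarithmic axis) of the 6 called members, Pde1a, Pde9a and Pde11a with all 7 libraries and with each library left out in turn, with the 0.05 threshold drawn. Adcy1, Adcy5 and Pde6c stay past the threshold in all 7 fits, and Pde3a passes it in none of them.

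Receptors and G proteins upstream of the cyclases are given from lists chosen for their role. Of 14 stimulatory receptors and G proteins tested, 2 were called (median log2 fold change 0.04), 1 of which is described here. Over all genes tested 3.90% were called. Glp1r, the GLP-1 receptor, had 7122, 6299, 5505 and 4151 normalized counts in the controls against 12189, 7852 and 7338 in the KO libraries (0.66, DESeq2 adjusted p 0.0479, edgeR 0.277). No KO library overlapped the controls, and beta cells are known to express this receptor too. It was not called without control 3 (adjusted p 0.171) or KO 1 (0.626). Gnas, which encodes the stimulatory G protein alpha subunit, had 29312 normalized counts in control 4 and 132852 to 185923 in the other controls, against 77610 to 113176 in KO libraries. With all libraries it was not called (-0.38, DESeq2 adjusted p 0.978), and without control 4 it fell by 0.71 on the log2 scale (adjusted p 0.000177; edgeR 0.11). Of its exon length 22% lies under exons of the opposite strand.

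Of 12 inhibitory receptors and G proteins tested, 1 rose and 2 fell (median -0.10), against 1.96% and 1.94% of all genes tested. Gnao1, the abundant inhibitory-class subunit Go alpha, had 44396, 47156, 41866 and 42781 normalized counts in the controls against 34391, 32572 and 33543 in the KO libraries. Both groups were narrow and apart, and Gnao1 fell by 0.39 on the log2 scale (DESeq2 adjusted p 0.000176, called in 7 of 7 fits without one library; edgeR 0.128). The somatostatin receptor Sstr2 fell by 0.71 on the log2 scale (adjusted p 0.0435), with control 4 (445) inside the KO range of 323 to 449. It was called only without control 4 or KO 2 among the 7 fits that left one library out (highest adjusted p 0.247). The adenosine receptor Adora1 rose by 0.71 (adjusted p 0.028), with 20.1% of its exon length under exons of the opposite strand, and lost its call without control 1, control 3, KO 1 or KO 2 (adjusted p up to 0.29). Without control 4 the list gave 5 calls, Gnai1 (-0.45) and Gnaz (-0.45) joining the lower ones, against 891 of all 18390 genes tested in that fit. By edgeR none of the genes in these 2 lists was called with all libraries, while 2 of 14 and 7 of 12 had an unadjusted DESeq2 p under 0.05, against 11.3% of all genes tested.

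In the downstream lists single genes were called, to be read beside the 3.90% of all genes. Of 11 A-kinase anchoring proteins tested, which tether the kinase within the cell, 2 rose (median 0.01), Akap6 (0.79, DESeq2 adjusted p 0.0224) and Akap13 (0.38, 0.0359), and edgeR called neither (0.154 and 0.199). Both lost the call without control 1, control 3, KO 1 or KO 2, and Akap13 also without the unnumbered library (adjusted p up to 0.249 and 0.176). None of 4 protein kinase A inhibitors and related kinases, of 6 CREB partners and CRTC kinases or of 10 Epac effectors and other cAMP-binding proteins was called by DESeq2 or edgeR, with 1, 1 and 3 at an unadjusted DESeq2 p under 0.05 (11.3% of all genes tested) and medians of 0.12, -0.06 and -0.16. Without control 4 one gene of the last list, Pclo, rose (0.55, adjusted p 0.0297). Of 16 CREB target genes 1 fell and none rose (median 0.05). The one was Vgf, which encodes a granule neuropeptide precursor, with 1475, 1658, 1791 and 1663 normalized counts in the controls against 500, 827 and 504 in the KO libraries. It fell by 1.43 on the log2 scale (DESeq2 adjusted p 3.00e-10, edgeR 0.0137) and was called in 7 of 7 fits without one library. Without control 4 Rgs2, a regulator of G protein signalling, was called as well (0.53, adjusted p 0.0274, against 0.71 and 0.0654 with it). Fos, an immediate early target, was at 0.05 (95% interval -0.23 to 0.34). Of 7 genes of cyclic GMP synthesis and targets 1 was called (median 0.02). Prkg1, the cyclic GMP-dependent kinase, fell by 1.92 on the log2 scale, from 685, 657, 799 and 1398 in controls to 209, 190 and 300 in KO libraries (DESeq2 adjusted p 2.53e-08, edgeR 0.0269), and by 1.61 without control 4, its highest library.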

How the data were processed

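RNA sequencing of sorted alpha cells gave 7 libraries. The labels name both polyadenylated RNA and ribosomal depletion, so which RNA fraction the counts cover is not settled. What the authors deposited was a single gene table of raw counts, whole numbers with no normalization. Per the submitters' processing notes, FastQC, STAR, featureCounts and DESeq2 were used with build mm10; versions, annotation and strand setting are not given in the sources used here. Of small counts (1 to 10), 84.4% to 88.9% per library were even, which a run on counts divided by 2 addressed. All 55536 gene identifiers matched GENCODE on that build, which gave exon lengths and positions.

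Counts were fitted over all genes with DESeq2 1.42.0 (R 4.3.3) at its defaults, filtering target 0.1, 4 control against 3 KO libraries, two-sided Wald test, Benjamini-Hochberg threshold 0.05. Quasi-likelihood edgeR 4.0.16 was the alternative test. Other scalings and filters, a replicate block and leaving out libraries were tried as well. Scripts were tested on simulated data. Normalized counts are counts divided by DESeq2's size factors. Levels divide these by union exon length in kilobases and by the mean normalized library total (54666264) over 1000000, and are means ± SD. Intervals are 95% Wald intervals and cover only that fit.

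The members and lists were chosen with earlier results of these data known. Named were Adcy5, Pde3b and Rapgef4, called members, all kinase, Epac, CREB, CREM and CRTC members, the 3 most abundant cyclases and 6 phosphodiesterases, members not called whose groups did not overlap with a log2 fold change of at least 0.5 in size, and at most 3 called genes per list and direction. The other members and Gnas, Gnai1, Gnaz, Pclo, Rgs2, Fos and the neighbouring genes were added after their values were seen. One called gene of the lists is not reported here.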

Additional observations from a re-analysis of the deposited data

Results flagged for a closer look

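The check covered 39 genes, the members named by the rules above and every gene called from the lists. Other genes described here, such as Adcy2, were not among them. Of the 39, 3 had 1 control library far from the other 3 controls, its gap to the nearest exceeding Dixon's 95% critical share of the range. Chance gives about 1 in 20, or 1.95 of 39. Creb1 had 3989 normalized counts in control 1 and 3507 to 3566 in the others. Crtc1 had 5943 in control 4 and 4413 to 4645 in the others. Akap6 had 814 in control 2 and 450 to 488 in the others. The high libraries were different ones in each case.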

How the results depend on the processing

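Across 20 alternatives Adcy1 (-1.49 to -1.25), Adcy5 (0.89 to 1.30) and Pde6c (1.13 to 1.41) kept their direction and their call, and no called result changed sign. Pde1c lost its call in 8 alternatives, Pde7b in 10 and Pde3a in 13. The 6 members called became 3 with edgeR and 3 with edgeR without control 4, where all genes called went from 769 to 203 and 249; the cause was not tested. Leaving out one library gave 3 to 6 members, 3 without control 3 and 3 without KO 1, and 430 (without KO 1) to 891 (without control 4) genes. With library totals as size factors, which moved the median of all genes by 0.10, 695 genes were higher and 298 lower (386 and 383 otherwise), and 6 members higher and 1 lower; Adcy6 then was at 0.02 and Rapgef4 at 0.03.

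A replicate block used control 1 and 2 with KO 1 and 2, the numbers both groups share, and called 3 members. The same 4 libraries without the block also gave 3. Whether fewer libraries or the choice of libraries lowered the count cannot be told apart. Over all genes the block gave 579 calls and those libraries without it 613. Same-numbered libraries deviated together (r = 0.231 and 0.301 over 14570 genes), but control 4 and the unnumbered KO library, with different numbers, did so more (0.482), and with only 2 pairs the numbers are not shown to pair the libraries. The runs without control 4 by edgeR, without the block, without the 2 deepest libraries and with the filtering target of 0.05 on genes with a count were chosen after seeing the data. Low counts limit what these depths show for Pde9a and Pde11a, with 22 to 153 counts per library.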
